A study of Mus musculus with 6 samples.

Results

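The 7 chemokine receptor genes Ccr1, Ccr4, Ccr6, Cxcr4, Cxcr5, Cxcr6 and Ccrl2 were followed in spleen leukocytes of mice with and without the miR-144/451 locus. They were taken by gene symbol from 44678 gene identifiers, and all 7 symbols matched an identifier. There were 3 RNA-seq libraries from wild type (WT) mice and 3 from miR-144/451 knockout (KO) mice, all labelled as spleen leukocytes that are CD8a+ and had no treatment. The study's methods place KO and WT mice on the C57BL/6J background, give adult mice of a single age range for all experiments, and describe a deletion of the genomic segment with the precursors of both microRNAs, with no restriction to a cell type stated. The WT mice were supplied by a university animal centre, and whether they were littermates of the KO mice is not stated.

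Chemokine receptors are seven-transmembrane proteins that couple mostly to the inhibitory G protein and steer leukocytes along gradients of small secreted chemokines. Each leukocyte type carries its own set, so CXCR5 and CCR6 are best known on B cells, CXCR6 on effector and memory T cells and innate lymphocytes, CCR4 on regulatory and helper T cells, and CCR1 on neutrophils and monocytes. CXCR4 is shared by nearly all leukocytes, while CCRL2 is an atypical receptor that binds chemerin and presents it without G protein signaling.

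The deleted locus makes the following mature microRNAs, shown because their seeds decide which sites in the receptor transcripts could be searched. Sequences are from RefSeq on GRCm38.p6, 5′ to 3′, with the seed (bases 2 to 8) in capitals.
miR-144-5p: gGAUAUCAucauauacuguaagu
miR-144-3p: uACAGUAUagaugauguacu
miR-451a: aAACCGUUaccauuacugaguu
The 3 seeds differ from each other. The precursors lie on the plus strand of chromosome 11, where miR-144-3p occupies chr11:78073047-78073066 and miR-451a chr11:78073186-78073207. Both precursor genes were listed at 0 counts in all 6 libraries, WT included, so the libraries could not show the deletion.

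None of the 7 receptors has a match to a whole seed in its annotated 3′-UTRs. Those of Ccr6 are only 19 to 73 bases long, which leaves little to search. The longest 3′-UTR of each other receptor has between 644 and 1597 bases. The letters searched were TGATATC for miR-144-5p, then ATACTGT for miR-144-3p, and finally AACGGTT for miR-451a. Such a match was present in 6.19% of the tested genes with a 3′-UTR for miR-144-5p, 14.2% for miR-144-3p and 2.04% for miR-451a. Cxcr6 and Ccrl2 each hold a shorter match to miR-451a, the 6 letters ACGGTT that pair with bases 2 to 7, followed by an A. The 7 letters ACGGTTA are in the 3′-UTR of 1.56% of the tested genes, and the 6 letters alone in 8.44%. The 30 bases around each match are given 5′ to 3′ from GENCODE M21 transcripts, with the 7 letters in capitals.
Cxcr6: atcaaggtcatgACGGTTAactctagagat
Ccrl2: tgtctctggcacACGGTTAagttatttata
The Cxcr6 site is at chr9:123811246-123811275 on the plus strand and begins its match 267 bases into the 3′-UTR. The Ccrl2 site is at chr9:111055196-111055225 on the minus strand and begins its match 133 bases into the 3′-UTR. A match of letters is a description and not a measured binding site. The fitted differences of these 2 genes had opposite signs, as given below.

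The libraries held between 8143971 and 8876570 counts, so that 3 counts stood for 0.338 to 0.368 CPM (counts scaled to library size). Levels of single genes are given as TMM-normalised CPM, and the number of counts behind them limits their precision. All 7 receptors passed the filter on low counts, with between 19 and 2923 counts per library. The labelled CD8a+ population carried its defining transcript, with Cd8a at 476 to 1041 CPM, but it also carried B cell and neutrophil transcripts. The study's methods describe magnetic bead sorts of dendritic cells and of T cells, but do not say which sort, if any, gave the sequenced cells, so the levels below cannot be assigned to 1 cell type. The summed CPM of 10 B cell markers was 3003 in WT 1, 3155 in KO 1 and 3419 in KO 2, against 1778 in WT 2, 1705 in WT 3 and 1469 in KO 3. The 10 neutrophil markers summed to 1301, 1435 and 1566 CPM in WT 1, KO 1 and KO 2, and to 462, 418 and 542 in WT 2, WT 3 and KO 3. The same libraries were thus high in both lists. Summed monocyte and macrophage markers ranged from 1294 to 2064 CPM in WT and from 1402 to 2764 CPM in KO. The 8 CD8 T cell markers had the opposite order, with 2965, 2711 and 2072 CPM in WT 1, KO 1 and KO 2, and 4026, 3837 and 3807 CPM in the other libraries. WT 1 therefore stood apart from the other WT libraries and KO 3 from the other KO libraries. In bulk RNA, fewer cells of a type and less RNA per cell cannot be told apart.

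No receptor of the 7 differed between KO and WT by edgeR's quasi-likelihood test at an adjusted p-value of 0.05, where 0.0307% of the 13024 tested genes did. None had an unadjusted p under 0.05 either, against 6.25% of all tested genes, and in none did the ranges of the groups separate, against 11.5%. DESeq2 and limma voom called none of the 7 either. Of the fitted log2 fold changes 5 were above 0 and 2 below, with a median of 0.19 beside 0.00297 over all tested genes. Adjusted p-values ran from 0.797 for Ccrl2 to 0.990 for Cxcr5 (edgeR). With 3 libraries per group the intervals were wide, and a p that misses the threshold does not show equal levels.

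Cxcr4, the receptor for CXCL12 that retains leukocytes in bone marrow and lymphoid tissue, was the most abundant of the 7. Its level was 317, 245 and 234 CPM in WT 1 to 3 and 198, 352 and 196 CPM in KO 1 to 3. The KO libraries held both the highest and the lowest level, so the groups overlapped. The mean was 265 ± 45.0 CPM in WT and 249 ± 89.2 CPM in KO (SD, n = 3 each), and the log2 fold change was -0.09 (SE 0.24, 95% interval -0.63 to 0.45, edgeR adjusted p = 0.947). The value rested on KO 2, without which it was -0.43 (unadjusted p = 0.0210, not called by edgeR after adjustment), and without WT 1 it was 0.05. With the B cell covariate it was -0.23 (SE 0.17, edgeR adjusted p = 0.825), and with the monocyte and neutrophil covariate -0.38 (SE 0.19, edgeR adjusted p = 0.857).

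Cxcr5 encodes the CXCL13 receptor that brings B cells and follicular helper T cells into follicles. It was measured at 105, 77.4 and 63.5 CPM in WT and at 102, 93.2 and 53.9 CPM in KO. The levels overlapped almost fully, with WT 1 highest and KO 3 lowest. Means were 81.9 ± 20.97 CPM in WT and 83.2 ± 25.7 CPM in KO (SD, n = 3), giving a log2 fold change of 0.02 (SE 0.25, 95% interval -0.57 to 0.61, edgeR adjusted p = 0.990). B cell markers moved with it. Among the 3 libraries rich in B cell markers Cxcr5 was 105 CPM in WT 1, 102 in KO 1 and 93.2 in KO 2, and among the others it was 77.4 and 63.5 in WT and 53.9 in KO 3. Per 1000 CPM of summed B cell markers the level was 34.9, 43.5 and 37.3 in WT and 32.4, 27.3 and 36.7 in KO (two-sided exact permutation p = 0.2, adjusted over 4 such ratios 0.4, smallest possible p 0.1). With the mean log2 CPM of the B cell markers as a covariate the log2 fold change was -0.19 (SE 0.10, edgeR adjusted p = 0.709). With the monocyte and neutrophil markers as the covariate it was -0.42 (SE 0.11), with an unadjusted p of 0.00375 and an edgeR adjusted p of 0.409.

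Ccr6, the CCL20 receptor of B cells and of T cells that produce interleukin 17, stood at 22.0, 10.04 and 14.3 CPM in WT and at 23.8, 21.4 and 7.56 CPM in KO. The KO libraries again held the highest and the lowest value. The log2 fold change was 0.19 (SE 0.43, 95% interval -0.80 to 1.18, edgeR adjusted p = 0.944), from means of 15.4 ± 6.08 CPM in WT and 17.6 ± 8.79 CPM in KO (SD, n = 3). Its levels spread 3.16-fold over the 6 libraries, beside a median of 1.44-fold for all tested genes. Divided by the summed B cell markers the spread was 1.63-fold, with 7.33, 5.65 and 8.37 per 1000 in WT and 7.56, 6.26 and 5.14 in KO (two-sided exact permutation p = 0.5, adjusted over the 4 ratios 0.667). With the B cell covariate the sign of the difference turned, to -0.23 (SE 0.20, edgeR adjusted p = 0.858). With the monocyte and neutrophil covariate it was -0.58 (SE 0.25, unadjusted p = 0.0469, edgeR adjusted p = 0.809). The part of cell makeup in these values was not tested beyond these fits.

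Ccr1 encodes a receptor for CCL3, CCL5, CCL6 and CCL9 on myeloid cells. It was found at 19.4, 9.81 and 11.04 CPM in WT and at 17.9, 21.7 and 10.8 CPM in KO. WT 1, KO 1 and KO 2 were high and the other 3 libraries, of both genotypes, lay between 9.81 and 11.04 CPM. Means were 13.4 ± 5.21 CPM in WT and 16.8 ± 5.54 CPM in KO (SD, n = 3), with a log2 fold change of 0.32 (SE 0.33, 95% interval -0.43 to 1.07, edgeR adjusted p = 0.876). Without WT 1 the log2 fold change was 0.68 and without KO 2 it was 0.10, neither of them called. Per 1000 CPM of summed monocyte, macrophage and neutrophil markers Ccr1 was 5.77, 5.59 and 6.17 in WT and 4.66, 5.0 and 5.54 in KO. In this ratio, chosen after the data were seen, all KO libraries lay below all WT libraries (two-sided exact permutation p = 0.1, the smallest that 3 against 3 allow, adjusted over the 4 ratios 0.4). The sum includes Ly6c2, at 488, 452 and 423 CPM in WT and 320, 295 and 542 CPM in KO. Ly6c2 was highest in KO 3, the lowest KO library for 11 of the 12 monocyte and macrophage markers. Whether the ratio separates the groups without Ly6c2 was not tested. As a covariate the monocyte, macrophage and neutrophil markers gave a log2 fold change of -0.19 (SE 0.18, edgeR adjusted p = 0.933).

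Ccrl2, the chemerin-binding receptor of neutrophils, macrophages and other activated leukocytes, had the largest fitted difference of the 7. Its level was 18.4, 9.13 and 12.5 CPM in WT and 24.8, 57.9 and 10.4 CPM in KO. KO 2 was the highest, KO 1 was also above the WT libraries, and KO 3 was below WT 1 and WT 3. The mean was 13.3 ± 4.67 CPM in WT and 31.0 ± 24.3 CPM in KO (SD, n = 3), with a log2 fold change of 1.21 (SE 0.55, 95% interval -0.06 to 2.48, unadjusted p = 0.0585, edgeR adjusted p = 0.797). The interval spans folds from 0.962 to 5.59. Without KO 2 the log2 fold change was 0.40, without KO 3 it was 1.61 (edgeR adjusted p = 0.133). KO 2 was also the library with the most erythroid marker RNA, a summed 2733 CPM against 252 to 876 CPM in the other 5, and with the most B cell, monocyte and neutrophil marker RNA. With the monocyte and neutrophil covariate the log2 fold change of Ccrl2 was 0.21 (SE 0.39, edgeR adjusted p = 0.975).

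Ccr4, the CCL17 and CCL22 receptor of regulatory and type 2 helper T cells, was the scarcest of the 7. It was read at 5.25, 4.68 and 2.36 CPM in WT and at 7.52, 6.98 and 3.55 CPM in KO, which are 46, 41 and 19 counts against 65, 58 and 31. KO 1 and KO 2 were above every WT library and KO 3 was below WT 1 and WT 2. Means of 4.09 ± 1.53 CPM in WT and 6.02 ± 2.15 CPM in KO (SD, n = 3) gave a log2 fold change of 0.55 (SE 0.39, 95% interval -0.36 to 1.46, edgeR adjusted p = 0.841). The 7 markers of CD4 and regulatory T cells summed to 233 CPM in WT 1, 236 in KO 1 and 239 in KO 2, and to 162 CPM in each of the other libraries. With the B cell covariate the log2 fold change of Ccr4 was 0.29, and with the monocyte and neutrophil covariate it was 0.03 (SE 0.35, edgeR adjusted p = 0.995). Without 1 library it lay between 0.26, without WT 3, and 0.80, without KO 3.

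Cxcr6 encodes the receptor for CXCL16 on effector and tissue memory T cells, and it was the 1 receptor whose libraries had another order. It was at 33.5, 33.5 and 37.6 CPM in WT and at 24.8, 18.6 and 36.5 CPM in KO. KO 1 and KO 2 were below all WT libraries and KO 3 lay between WT 2 and WT 3. The mean was 34.9 ± 2.34 CPM in WT and 26.6 ± 9.09 CPM in KO (SD, n = 3), with a log2 fold change of -0.39 (SE 0.22, 95% interval -0.90 to 0.12, edgeR adjusted p = 0.816). Without KO 3 the log2 fold change was -0.70 (unadjusted p = 0.00231, edgeR adjusted p = 0.122), and without KO 2 it was -0.19. With the monocyte and neutrophil covariate it was -0.17 (SE 0.17, edgeR adjusted p = 0.942). Divided by the summed CD8 T cell markers Cxcr6 was 11.3, 8.33 and 9.80 per 1000 in WT and 9.14, 8.999 and 9.60 per 1000 in KO (two-sided exact permutation p = 0.7). KO 1 and KO 2 were also the lowest libraries in CD8 T cell markers, and the part of CD8 T cell RNA in the Cxcr6 values was not tested beyond this ratio.

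**Figure D1:**
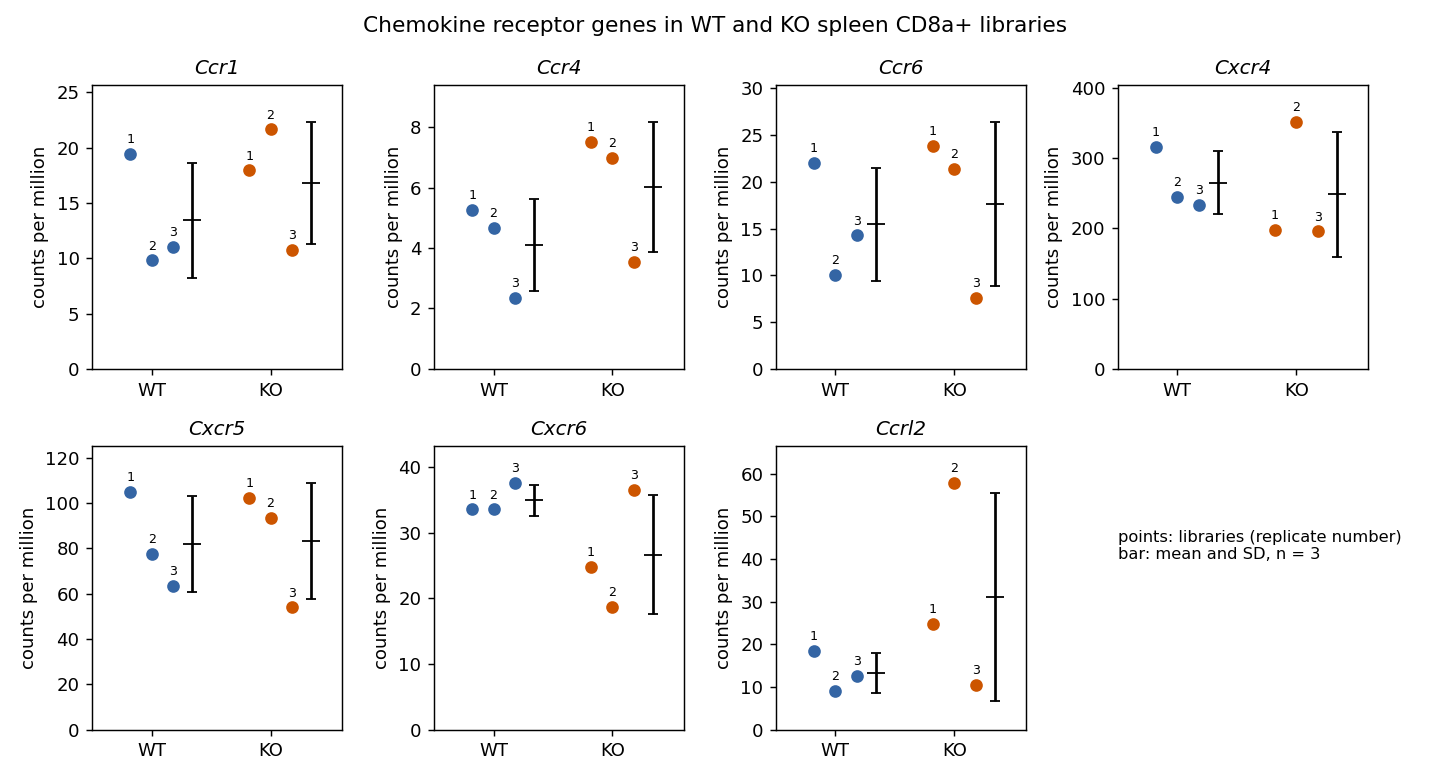
Each panel plots 1 receptor gene in CPM on a linear axis from 0, with a point for each WT (blue) and KO (orange) library, its replicate number above it, and the mean with SD (n = 3) beside each group. In all 7 panels the groups overlap, KO 3 is the lowest KO library in all but Cxcr6, and Ccrl2 reaches 57.9 CPM in KO 2.

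The receptors other than Cxcr6 shared an order of libraries within each genotype. In 6 of the 7 genes WT 1 was the highest WT library and KO 3 the lowest KO library, an order found in 19.2% of all tested genes. The order was read from these same data, so its share among the receptors is a description and not a test. For Cxcr4 this rests on 198 against 196 CPM in KO 1 and KO 3. None of the 7 had the opposite order, which 18.2% of tested genes had and which all 8 CD8 T cell markers had. Cxcr6 missed it only by a tie of WT 1 and WT 2 at 294 counts each, with KO 3 as its highest KO library. The same order as in the 6 receptors was seen in 10 of 10 B cell markers, 10 of 10 neutrophil markers and 11 of 12 monocyte and macrophage markers. These are orders within groups, and they carry no information on the difference between genotypes.

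**Figure D2:**
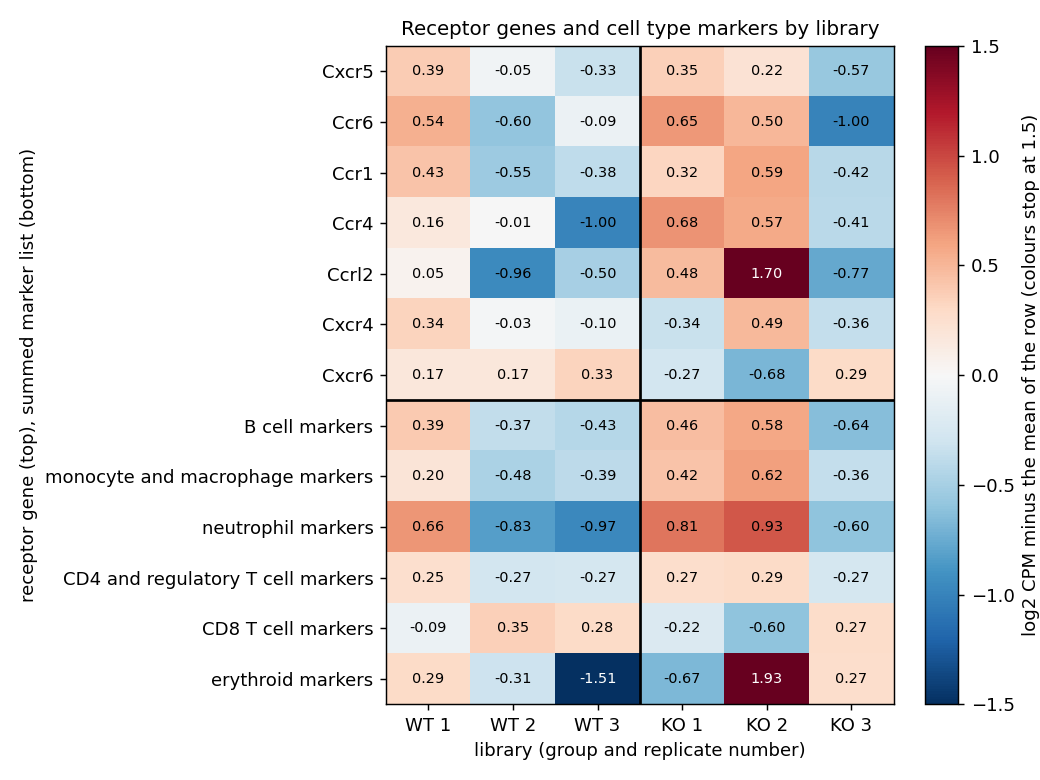
Rows are the 7 receptor genes (top) and the summed CPM of 6 marker lists (bottom), columns the 6 libraries, and each cell gives log2 CPM minus the mean of its row. Cxcr5, Ccr6, Ccr1, Ccr4 and Ccrl2 are above their mean in WT 1, KO 1 and KO 2, the libraries with the most B cell and neutrophil marker RNA, while Cxcr6 runs with the CD8 T cell markers in the KO libraries.

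Levels of different genes were compared per length, as TPM computed from the counts and the annotated exon length. Over the 6 libraries Cxcr4 averaged 430 TPM (330 to 605), Cxcr5 74.9 (49.2 to 94.98), Cxcr6 48.1 (30.1 to 59.4), Ccrl2 26.1 (10.5 to 69.3), Ccr6 21.6 (9.91 to 31.8), Ccr1 16.2 (10.3 to 23.8) and Ccr4 4.96 TPM (2.33 to 7.52). Only the steps from Cxcr4 to Cxcr5 and from Ccr1 to Ccr4 were larger than the spread over libraries, and the levels between them overlapped from 1 gene to the next. Among 27 receptor genes listed, Cxcr4 ranked second behind Ccr7, the lymph node homing receptor, which averaged 772 TPM (682 to 894). Cxcr5 ranked 4 and Ccr4 17 of the 27.

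**Figure D3:**
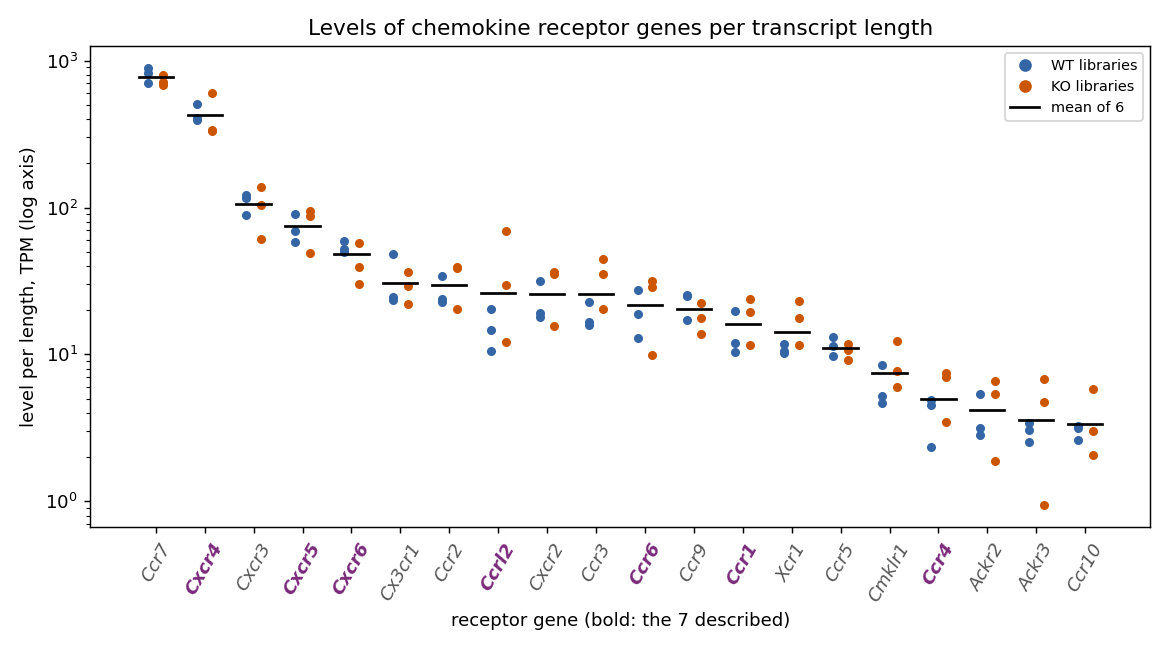
TPM of the 20 receptor genes that passed the filter on low counts, on a log axis and ordered by their mean (bar), with 1 point for each WT (blue) and KO (orange) library. Cxcr4 at a mean of 430 TPM and Ccr7 at 772 TPM stand above the rest, and Ccr4 averages 4.96 TPM.

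The other chemokine receptors gave a like picture. Of 20 listed 13 passed the filter, none was called in either direction by edgeR, 8 were above 0 and 5 below, and the median log2 fold change was 0.22. The smallest unadjusted p-values belonged to Ccr3, the eotaxin receptor of eosinophils, with a log2 fold change of 0.79 (SE 0.28, unadjusted p = 0.0215, edgeR adjusted p = 0.749), and to Xcr1, the receptor of cross-presenting dendritic cells, with 0.63 (SE 0.24, unadjusted p = 0.0319, edgeR adjusted p = 0.786). Ccr9, the gut homing receptor, followed with -0.37 (SE 0.20, edgeR adjusted p = 0.816). Beside Ccr7, the highest levels per length were those of Cxcr3, at 105 TPM (60.8 to 139), and Cx3cr1, at 30.6 TPM (21.9 to 48.5). Their log2 fold changes were -0.19 for Ccr7, -0.15 for Cxcr3 and -0.21 for Cx3cr1, none of them called. Ccr9 and Cxcr3 had the library order of the CD8 T cell markers, and Ccr2, Ccr3, Cxcr2, Cx3cr1, Ackr2 and Cmklr1 that of the 6 receptors described above.

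**Figure D4:**
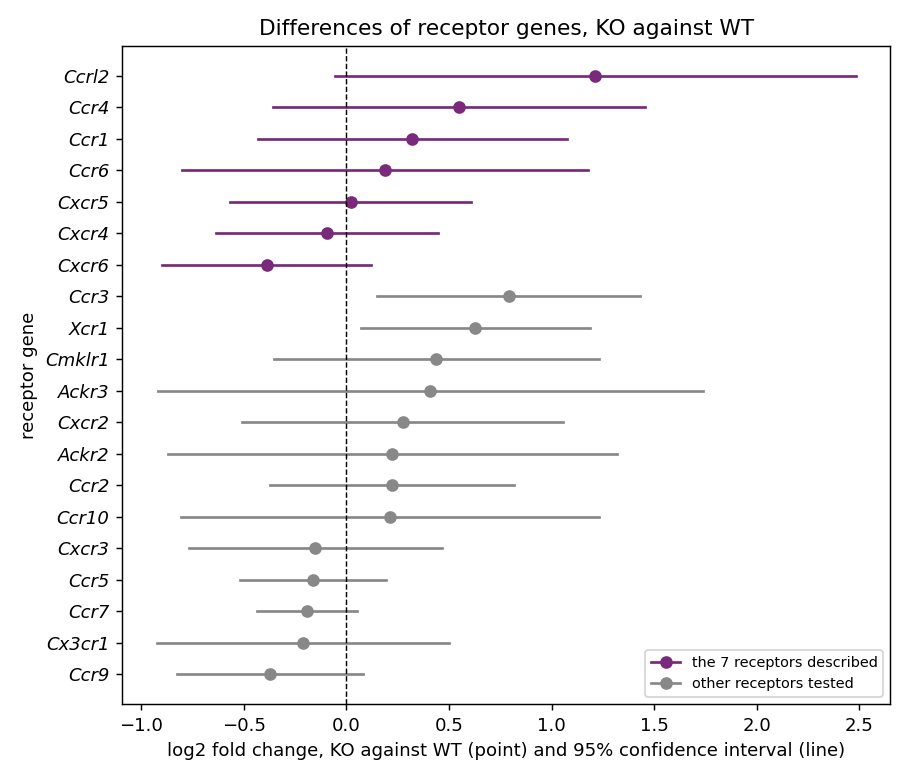
Log2 fold changes of KO against WT with 95% confidence intervals for the 7 receptors (purple) and the 13 other tested receptors (grey). The intervals of all 7 cross 0, with that of Ccrl2 reaching from -0.06 to 2.48.

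The ligands of the 7 receptors ranged from no counts to a mean of 1145 TPM for Ccl5, above every receptor listed. Of 14 listed 7 passed the filter, none was called in either direction, 4 were above 0 and 3 below, with a median log2 fold change of 0.38. Ccl7, Ccl8 and Ccl17 were at 0 counts in all libraries, and Ccl20 (the ligand of CCR6) and Rarres2 (chemerin, the ligand of CCRL2) had counts in 1 library each. Cxcl13, the ligand of CXCR5, stayed at or below 0.456 CPM. Ccl5, a CCR1 ligand made by T cells and natural killer cells, was the highest ligand and was measured at 576, 385 and 342 CPM in WT and at 227, 329 and 332 CPM in KO. All KO libraries lay below all WT libraries, with a log2 fold change of -0.55 (SE 0.22, unadjusted p = 0.0362, edgeR adjusted p = 0.786). Ccl5 was the 1 of 7 tested ligands without overlap of the groups, near the 11.5% of all tested genes. It was also the 1 with an unadjusted p under 0.05 (edgeR), against 6.25% of all tested genes. Ccl3, another CCR1 ligand, had a log2 fold change of 0.78 (SE 0.44, edgeR adjusted p = 0.816) and Cxcl16, the ligand of CXCR6, one of 0.45 (SE 0.26, edgeR adjusted p = 0.817). The highest levels per length after Ccl5 were those of Mif, which also binds CXCR4, with a log2 fold change of -0.18, and Ccl6.

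Ccl6, a mouse CCR1 ligand of myeloid cells, was the 1 gene of the receptor, ligand and signaling lists that was called under an alternative. Its level was 92.9, 38.9 and 40.0 CPM in WT and 66.4, 67.2 and 20.7 CPM in KO, with overlapping groups and a log2 fold change of -0.16 (SE 0.47, edgeR adjusted p = 0.957). With the B cell covariate the log2 fold change was -0.61 (SE 0.09, edgeR adjusted p = 0.0346), and with the monocyte and neutrophil covariate -1.04 (SE 0.12, edgeR adjusted p = 0.0107). These fits called 30 and 9 of the 13024 tested genes, and Ccl6 is described because it was among them. Within the 3 libraries rich in myeloid markers WT 1 was above KO 1 and KO 2, and within the other 3 WT 2 and WT 3 were above KO 3. This grouping was made after the data were seen and was not tested.

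Downstream of the receptors, 48 of 48 listed genes for G proteins, receptor kinases, arrestins, regulators of G protein signaling and motility proteins passed the filter. None was called in either direction, 23 were above 0 and 25 below, and their median log2 fold change was -0.00294. The smallest unadjusted p-values were those of Rgs10, a regulator that shortens G protein signaling, with a log2 fold change of -0.34 (SE 0.12, edgeR adjusted p = 0.759), Arrb1, the beta-arrestin 1 gene, with 0.25 (SE 0.10, edgeR adjusted p = 0.786), and Grk3, a kinase that desensitises receptors, with 0.60 (SE 0.26, edgeR adjusted p = 0.786). The groups did not overlap for 5 of the 48, near the 11.5% of all tested genes: Arrb1 was higher in all KO libraries, and Rgs10, Gnb1, Rhoa and Itgb2 were lower. The most abundant were Coro1a at a log2 fold change of -0.19, Rac2 at -0.15 and Itgb2 at -0.05, which serve actin turnover and adhesion in leukocytes and were not called.

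Genes whose log2 CPM followed a receptor most closely over the 6 libraries were listed as a description, among 9277 protein-coding genes with a mean log2 CPM of at least 3. The points share depth and cell makeup and fall into clusters of libraries, so the Pearson r has no p. Cxcr5 ran with Cd180 (r = 0.987), Hvcn1 (0.981) and Tnfrsf13b (0.981), and Ccr6 with Tppp3 (0.995), Alox5 (0.991) and Acsf2 (0.991). Ccr1 ran with Tor3a (0.998), Ctss (0.996) and Ddx28 (0.996), and Ccr4 with Gpd1l (0.983), Cd55 (0.976) and Cers4 (0.974). Cxcr4 was closest to Tspyl2 (0.991), Oasl1 (0.976) and Ptp4a1 (0.973), and Cxcr6 to Hdhd5 (0.997), Hprt (0.996) and Ctsw (0.994). Ccrl2 was closest to Rgs2 (0.999), E2f2 (0.997) and Mfsd12 (0.996). Rgs2, from the signaling list, was at 227, 161 and 197 CPM in WT and at 263, 387 and 175 CPM in KO, with KO 2 highest as for Ccrl2. At an r of at least 0.95 Ccr1 had 210 such genes and Cxcr4 had 10.

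Most of the receptors lie on chromosome 9 (GRCm38), where 5 of the 7 and 15 of the 27 receptor genes are annotated. Ccr1 (chr9:123962124-123968692, minus strand) and Cxcr6 (chr9:123806475-123811760, plus strand) are 150 kb apart in the main receptor cluster, with Xcr1 between them. Ccr1 and Cxcr6 nevertheless had opposite orders in the KO libraries, with Ccr1 highest and Cxcr6 lowest in KO 2. Ccrl2 (chr9:111054486-111057519, minus strand) is 11.7 kb from Ltf, the lactoferrin gene of neutrophil granules, and Ccr4 is at chr9:114490316-114504916 on the minus strand. Ltf was at 162, 35.8 and 33.8 CPM in WT and at 183, 222 and 64.4 CPM in KO, so both neighbours were highest in KO 2 and the part of neutrophil RNA in the Ccrl2 values was not tested beyond the covariate fit. Cxcr5 (chr9:44511787-44561877, minus strand) shares 110 exonic bases with Bcl9l on the other strand, and since the sources do not state whether counting used strand, reads there could belong to either gene. Cxcr6 lies within Fyco1, which is on the other strand, and shares no exonic base with it. Ccr6 (chr17:8236043-8257141, plus strand) and Cxcr4 (chr1:128588199-128592293, minus strand) are on other chromosomes.

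Promoter windows from RefSeq (GRCm38.p6, 250 bases before to 50 after a start) were found for 6 of the 7 receptors, and Cxcr5 had none in the table. The 250 bases before the start are shown for the receptor with the highest level and the receptor with the largest fitted difference, 5′ to 3′ on the minus strand for both, with the matched motifs in capitals. They are chr1:128592300-128592549 for Cxcr4 and chr9:111057519-111057768 for Ccrl2, the latter being the first of 3 annotated starts.
Cxcr4: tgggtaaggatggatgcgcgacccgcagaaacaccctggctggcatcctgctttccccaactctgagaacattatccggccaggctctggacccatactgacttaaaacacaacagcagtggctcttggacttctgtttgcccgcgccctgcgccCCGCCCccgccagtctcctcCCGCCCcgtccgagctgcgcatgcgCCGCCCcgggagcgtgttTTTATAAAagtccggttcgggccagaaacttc
Ccrl2: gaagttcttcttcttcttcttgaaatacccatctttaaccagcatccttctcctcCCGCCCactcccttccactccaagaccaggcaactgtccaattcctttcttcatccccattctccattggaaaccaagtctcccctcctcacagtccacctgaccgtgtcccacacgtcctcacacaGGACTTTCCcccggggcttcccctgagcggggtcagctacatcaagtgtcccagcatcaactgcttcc
Motifs were searched on both strands as exact letters, so variant spellings of a site were not counted. The GC box GGGCGG occurs 3 times before Cxcr4 and once before Ccrl2, and is in 35.7% of all 32851 windows. The TATA motif TATAAA was found before Cxcr4 alone among the 6, on both strands in overlapping matches that begin 32 and 30 bases before the start, and is in 13.6% of all windows. The NF-kB core GGACTTTCC was found before Ccrl2 alone among the 6, beginning 68 bases before the start shown, and is in 0.344% of all windows and in a window of 0.400% of genes. The windows at the other 2 Ccrl2 starts hold none of the motifs searched. The AP-1 motif TGACTCA was found before Ccr4 alone and is in 5.20% of windows, while the PU.1 motif GAGGAAGT (3.20%) and the E-box CACGTG (7.15%) were found before none of the 6. Cxcr4 had 20 CpG in its window, beside a median of 7 over all windows. These matches describe letters only and say nothing of the factors.

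**Figure D5:**
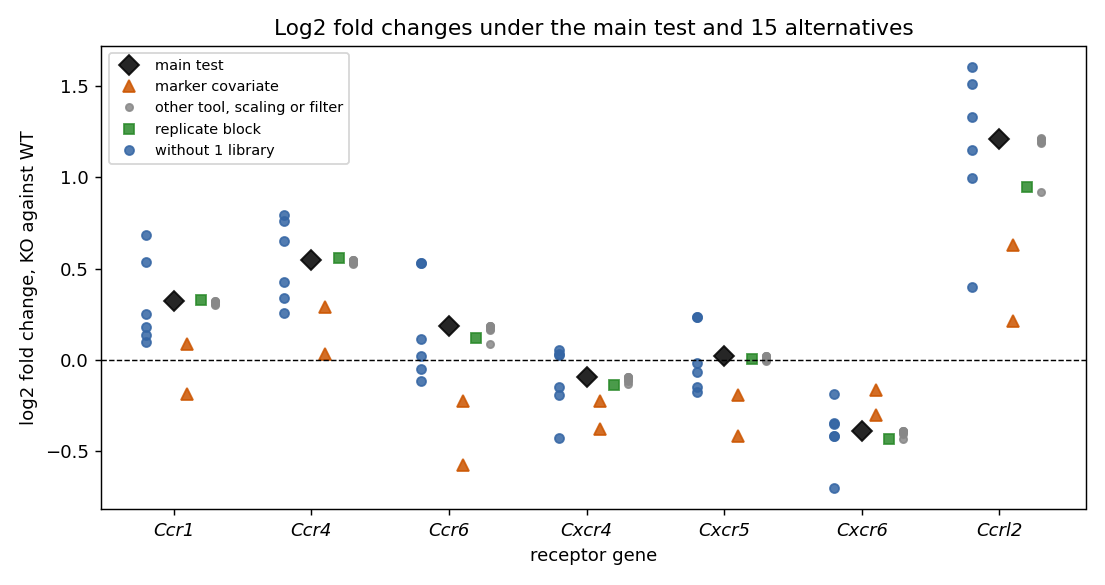
Log2 fold changes of KO against WT of the 7 receptors under the main edgeR test (diamond) and 15 alternatives, which leave out 1 library each (blue), add marker levels as a covariate (triangles), block on the replicate number (squares) or change the tool, scaling or filter (grey). Ccr4 and Ccrl2 stay above 0 and Cxcr6 below 0 in all of them, while Ccr1, Ccr6, Cxcr4 and Cxcr5 cross 0 in at least 1.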

How the data were processed

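The authors deposited 1 table of expected counts per library, that is, estimated read counts per Ensembl gene that need not be whole. Per the labels, total RNA was made into libraries with a SMARTer mRNA kit, and the submitters' processing notes name the genome build GRCm38 (mm10). The aligner, the counter and the use of strand are not given in the sources used here. Replicates were not pooled.

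After rounding, KO was compared with WT in edgeR 4.0.16 (R 4.3.3) by glmQLFTest, the quasi-likelihood test, with TMM scaling, no covariate and filterByExpr (minimum count 10, minimum total 15). Calls were made at a Benjamini-Hochberg adjusted p of 0.05 over the 13024 genes that passed. The text names all 7 receptors, and from each of 3 lists (other receptors, ligands, signaling) every called gene, the 3 with the smallest p and the 3 with the highest level per length, with the 3 genes most like each receptor and their neighbours. Ccl6 was chosen for its values under alternatives, and Ccl7, Ccl8, Ccl17, Ccl20, Rarres2, Cxcl13, Gnb1, Rhoa and the receptors given for their library order after their values were seen. The receptors and all lists were chosen with earlier results of these data known. TPM used exon lengths of GENCODE M21, in which 98.75% of identifiers were found. No source states that the samples of a group are separate mice, so p-values measure the spread between samples, which may be technical.

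Alternatives were DESeq2 1.42.0, limma 3.58.1 voom, upper-quartile scaling, unrounded counts, other filters, marker covariates, a replicate block and leaving out each library. The 4 ratios to summed markers were added after the data were seen. The fit was tested on simulated data.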

Additional observations from a re-analysis of the deposited data

How the results depend on the processing

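No receptor of the 7 was called under any of the 15 alternatives set at the start. Of 105 values of the 7 receptors under them 90 kept their sign, 15 turned, and 7 had an unadjusted p under 0.05. With the monocyte and neutrophil covariate the log2 fold change was -0.19 for Ccr1, -0.58 for Ccr6 and -0.42 for Cxcr5, and with the B cell covariate -0.23 for Ccr6 and -0.19 for Cxcr5. By limma voom Cxcr5 was at -0.0047. The ratios to summed markers, added after the data were seen, gave log2 values of -0.26 for Cxcr5, -0.17 for Ccr6 and -0.21 for Ccr1. Leaving out 1 library moved Ccr6 between -0.11 and 0.53, Cxcr4 between -0.43 and 0.0519 (above 0 without WT 1, KO 1 or KO 3), and Cxcr5 between -0.17 and 0.24. The number of genes called among all tested was 4 in the main test, 58 by DESeq2, 12 without a filter on low counts, 30 with the B cell covariate, 9 with the monocyte and neutrophil covariate, and between 2 and 94 with 1 library left out, the most without KO 3. Among the ligands 1 gene, Ccl6, was called with each covariate. Beyond the models' own construction, the cause was not tested. The labels number the replicates of both groups alike. Deviations of same-numbered libraries correlated at -0.01, -0.20 and 0.11, and 1 of 6 libraries correlated best with its own number. These values show no pairing by number, but they cannot exclude it, since the cell makeup of each library also enters the deviations. With the replicate block 9 genes were called, none of the 7 receptors among them. Depth limited Ccr4 most, with 19 counts in its lowest library.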

Other observations

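Conventional dendritic cell markers, which the study's question concerns, were set beside the receptors as values only. The 8 conventional dendritic cell markers summed to between 641 and 700 CPM in WT and between 799 and 875 CPM in KO, so the sums did not overlap. Wdfy4 was the largest part of every sum, at 368, 315 and 342 CPM in WT and 502, 523 and 410 CPM in KO. Sums without Wdfy4 were not tested. Taken singly, 4 of the 8 markers did not overlap between the groups, against 11.5% of all tested genes. Of the 8, 7 had a fitted log2 fold change above 0, with a median of 0.48, 4 had an unadjusted p under 0.05, against 6.25% of all tested genes, and none was called by edgeR after adjustment. Other lists had like or larger values: 11 of 12 monocyte and macrophage markers were above 0, with a median of 0.85, and 6 had an unadjusted p under 0.05. All 10 neutrophil markers (median 0.67) and all 9 erythroid markers (median 1.10) were also above 0. Of the plasmacytoid dendritic cell markers 1 of 5 tested was above 0 (median -0.09), with sums of 195 to 205 CPM in WT and 186 to 222 CPM in KO that overlapped, and of the CD8 T cell markers 0 of 8 (median -0.33). In the conventional dendritic cell sums WT 1 lay between WT 2 and WT 3, unlike in 6 of the 7 receptors, while KO 3 was the lowest KO library as in those 6. By single marker KO 3 was the lowest KO library in 4 of the 8, and it was the highest for Flt3, Zbtb46, Clec9a and Itgae. Xcr1, a receptor of the same cells, was at 15.7, 17.7 and 15.4 CPM in WT and at 25.4, 16.5 and 33.7 CPM in KO, with overlapping groups.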
